A study of Mus musculus with 8 samples.

Results

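Both arms of miR-148a, miR-148b and miR-152 were followed in the cardiomyocytes of mice with and without pressure overload. The 6 members were chosen by name and not by their counts. They are mmu-miR-148a-3p, mmu-miR-148a-5p, mmu-miR-148b-3p, mmu-miR-148b-5p, mmu-miR-152-3p and mmu-miR-152-5p, and all 6 were found among the 697 mature miRNAs of the files. Small RNA was sequenced from isolated cardiomyocytes of 4 Sham and 4 TAC mice, which were males operated on at the age of 2 months. In TAC, transverse aortic constriction, the aortic arch is narrowed so that the left ventricle pumps against a raised pressure, and Sham mice are the operated controls. The study isolated the cells by perfusing the heart with enzyme on a Langendorff apparatus, and it used part of the myocytes of a single heart for each library. The study's text gives 14 weeks both as the time after surgery and as the age of the mice at isolation. The strain and genotype are not given in the sources used here, and no drug treatment separates the groups. The libraries therefore stand for 1 time point, 1 sex and a preparation of whole-heart myocytes.

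A miRNA is cut from a hairpin RNA by Drosha and Dicer, and either of its arms, 5p or 3p, can be loaded into an Argonaute protein. The loaded arm finds its messenger RNAs mainly through the seed, bases 2 to 8 from its 5′ end, so arms with the same seed are expected to share targets. The 3p arms of this family are known for repressing Dnmt1, the maintenance DNA methyltransferase. miR-148a is abundant in liver, where it represses the cholesterol exporter gene Abca1, and in the mouse heart under pressure overload it has been studied as a repressor of Il6st (gp130), the shared receptor of the interleukin-6 cytokines. No messenger RNA or protein of these targets was measured in the libraries described here.

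The sequences are printed because the family is defined by them, and because the counts of the 3p arms rest on a few bases. They were taken from RefSeq on the build GRCm38.p6, are written 5′ to 3′, and carry their seed in capitals.
mmu-miR-148a-3p: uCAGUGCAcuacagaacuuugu
mmu-miR-148b-3p: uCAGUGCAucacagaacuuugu
mmu-miR-152-3p: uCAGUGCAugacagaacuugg
mmu-miR-148a-5p: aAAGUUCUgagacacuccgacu
mmu-miR-148b-5p: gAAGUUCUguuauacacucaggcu
mmu-miR-152-5p: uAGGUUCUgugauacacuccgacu

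The 3p arms fall in a single seed group, CAGUGCA, which no other miRNA of the RefSeq table or of the files carries, among the 593 of 697 names of the files that have a sequence in that table. With positions counted from 1 at the 5′ end of the miRNA named first, miR-148a-3p and miR-148b-3p differ by C9U and U10C. miR-148a-3p and miR-152-3p differ by C9U, U10G and U20G, and miR-148b-3p and miR-152-3p by C10G and U20G. The 5p arms are less alike. miR-148a-5p and miR-148b-5p share the seed AAGUUCU but differ at 9 of the 22 positions compared, while miR-152-5p has the seed AGGUUCU and differs from miR-148b-5p at 5 of 24 positions. How tags that fit more than 1 of these arms were counted is not given in the sources used here, so the division of counts among the 3p arms is uncertain to that extent.

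The members come from 3 separate loci, shown here as their hairpins with the mature arms in capitals, the 5p arm first.
Mir148a: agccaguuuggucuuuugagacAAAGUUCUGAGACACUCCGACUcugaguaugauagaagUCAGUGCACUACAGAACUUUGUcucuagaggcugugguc
Mir148b: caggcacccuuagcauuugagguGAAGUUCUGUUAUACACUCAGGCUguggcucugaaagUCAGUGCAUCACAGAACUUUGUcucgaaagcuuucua
Mir152: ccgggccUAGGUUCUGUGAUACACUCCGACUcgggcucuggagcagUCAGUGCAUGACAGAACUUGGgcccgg

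Mir148a lies on the minus strand at chr6:51269812-51269910 of GRCm38, where GENCODE vM21 has no other gene, and the nearest protein-coding gene, Nfe2l3, is 162760 bp away. Mir148b lies on the plus strand at chr15:103285125-103285221, in an intron of Copz1 and in the same direction as that gene. Mir152 lies on the plus strand at chr11:96850393-96850465, in an intron of Copz2 and also in the direction of its host. Copz1 and Copz2 encode alternative zeta subunits of the COPI coat of Golgi vesicles, so 2 of the 3 loci sit in paralogous hosts and 1 stands alone. The mature 3p arms occupy chr6:51269829-51269850, chr15:103285185-103285206 and chr11:96850439-96850459, and the 5p arms chr6:51269867-51269888, chr15:103285148-103285171 and chr11:96850400-96850423, in the order miR-148a, miR-148b and miR-152.

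The libraries held 4005668 to 7798943 miRNA tags each, and every TAC library held more than every Sham library. Of the lists of marker miRNAs, the cardiomyocyte list (miR-1a-3p, miR-133a-3p, miR-208a-3p, miR-208b-3p and miR-499-5p, with none of the 5 at 0) summed to 160712–198133 counts per 1000000 miRNA counts (CPM) in Sham and 194455–245941 in TAC. The list of fibroblasts and smooth muscle (7 of 7 in the files) summed to 43416–51285 CPM in Sham and 38355–45590.4 in TAC. In messenger RNA of the same kind of preparation, the study found markers of cardiac fibroblasts to be low, and how far these miRNAs come from other cells was not tested. The endothelial list holds only the 2 arms of miR-126a, which summed to 49248–72051 CPM in Sham and 29274–34557 in TAC, without overlap. Such a share also falls when other miRNAs take more of the counts. miR-122-5p, which marks liver, where miR-148a is also abundant, was at no more than 9.46 CPM in any library. Whether any miR-148a came from other organs was not tested. The list of erythroid cells (3 miRNAs) summed to 418–1503 CPM in Sham and 43.8–550.0 in TAC, and that of leukocytes (5 miRNAs) to 1305–2455 and 1051–1448 CPM. In TAC mouse 4 the epithelial sum was highest, 1016 CPM against at most 274 in the other TAC libraries and 330.5 in Sham, and so was the pancreas acinar sum, 88.9 CPM against at most 27.2 in the other TAC libraries and 33.0 in Sham. The library of Sham mouse 1 stood farthest from the others of its group, with a chi-square per degree of freedom of 411 to 508 over all miRNAs where other Sham pairs had 132 to 182. Among the TAC libraries, TAC 4 was far from TAC 1 (519) and TAC 2 (396) but closer to TAC 3 (149.8). TAC 1 and TAC 3 had 255, TAC 1 and TAC 2 had 146, and TAC 2 and TAC 3 had 103. For a given cell type, fewer cells and less RNA per cell cannot be told apart in such bulk libraries.

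The family was carried almost wholly by its 3p arms, and among them by miR-148a-3p. Over the 8 libraries the members held 651435 counts, of which miR-148a-3p had 514619, miR-152-3p 115123 and miR-148b-3p 20297. By total count these 3 arms ranked 22, 40 and 80 among the miRNAs. The 5p arms ranked far lower, with 1127 counts for miR-148a-5p (rank 206), 236 for miR-148b-5p (rank 303) and 33 for miR-152-5p (rank 482). Because the members are all 21 to 24 bases long, their counts need no correction for length, but adapters are known to join to some small RNAs more readily than to others, so an order of counts is not strictly an order of molecules.

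miR-148a-3p, the most abundant member, had 14685, 9909, 10809 and 12431 CPM in Sham mice 1 to 4, by library total. It had 12825, 10879, 9426 and 10403 CPM in TAC mice 1 to 4. The lowest library was a TAC library and the highest was Sham 1, and the groups overlapped, at 11959 ± 2096 CPM in Sham and 10883 ± 1429 CPM in TAC (SD, n = 4 each).

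miR-148b-3p, which differs from miR-148a-3p at 2 of its 22 bases, had 736, 408, 424 and 511 CPM in Sham mice 1 to 4. In TAC mice 1 to 4 it had 442, 396, 335 and 404 CPM. Sham 1 again stood highest, and the Sham group spread more widely around its mean (519.6 ± 151 CPM, a coefficient of variation of 29.1%) than the TAC group did (394 ± 44.2 CPM, 11.2%, n = 4 each).

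miR-152-3p, which comes from the intron of Copz2, had 2324, 2614, 3296 and 2978 CPM in Sham mice 1 to 4. In TAC mice 1 to 4 it had 2682, 2425, 2211 and 2003 CPM. Here Sham 1 was the lowest Sham library instead of the highest, and the groups overlapped at 2803 ± 424 CPM in Sham and 2330.3 ± 291 CPM in TAC (SD, n = 4 each). The order of the 3p arms was the same in all 8 libraries, with miR-148a-3p above miR-152-3p and miR-152-3p above miR-148b-3p, and no library of 1 arm reached the range of another.

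Among the 5p arms, miR-148a-5p had 30.5, 24.3, 20.8 and 25.2 CPM in Sham mice 1 to 4. It had 26.0, 23.8, 24.9 and 22.8 CPM in TAC mice 1 to 4. These are counts of 101 to 186 tags per library, and the groups overlapped, with means of 25.2 CPM in Sham (coefficient of variation 15.9%, n = 4) and 24.4 CPM in TAC (5.53%, n = 4).

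miR-148b-5p was seen in 15, 36, 34 and 28 tags in Sham mice 1 to 4 and in 33, 34, 32 and 24 tags in TAC mice 1 to 4. As CPM these are 3.24, 6.68, 6.93 and 6.99 in Sham and 5.99, 4.36, 5.05 and 3.32 in TAC. Sham 1, which was highest for both 3p arms of the miR-148 loci, was lowest for this arm, and the groups overlapped.

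miR-152-5p was close to the limit of detection, with 15, 3, 5 and 0 tags in Sham and 5, 0, 1 and 4 in TAC. A count of 0 allows up to 3 tags, which is 0.749 CPM in Sham 4 and 0.385 CPM in TAC 2. No fold change is given for this arm.

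**Figure D1:**
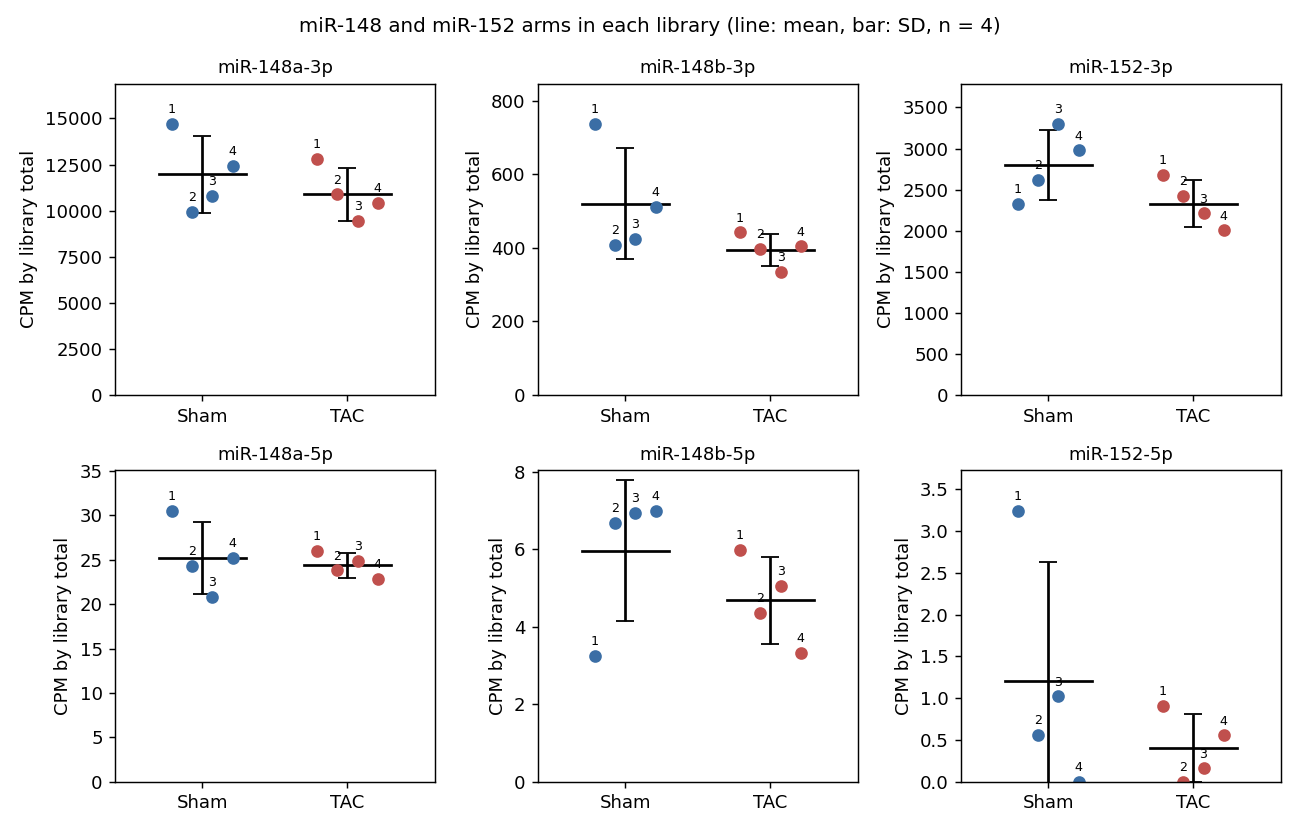
CPM (counts per 1000000 miRNA counts) of the 6 members, by library total, in each of the 8 libraries, with 1 panel per member and a vertical axis that starts at 0. Points are libraries, numbered by mouse, and the line and bar are the mean and SD of 4 libraries (the bar of miR-152-5p in Sham runs below 0 and is not drawn there). The groups overlap in every panel, from miR-148a-3p at 11959 ± 2096 against 10883 ± 1429 CPM down to miR-152-5p at 0 to 3.24 against 0 to 0.908 CPM, and Sham 1 stands highest for miR-148a-3p, miR-148b-3p and miR-148a-5p but, among the Sham libraries, lowest for miR-152-3p and miR-148b-5p.

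The comparison of TAC with Sham asks whether the members changed in pressure overload, and its answer depended on the scale. The study normalized to miR-126a-3p and also to miR-19b-3p, after checking by QPCR that both were unaltered. By library total these 2 references stood in TAC at 0.576 and 0.50 of their Sham means, so setting them level divides the CPM of the TAC libraries by 0.537 and raises every miRNA in TAC by 0.90 on the log2 scale. miR-126a-3p is known as an endothelial miRNA. With miR-19b-3p alone as the reference, the log2 fold changes were 0.86 for miR-148a-3p, 0.95 for miR-148a-5p, 0.60 for miR-148b-3p and 0.73 for miR-152-3p, and with miR-126a-3p alone they were 0.66, 0.75, 0.40 and 0.53, so both references gave the same direction. Each fold change comes from the quasi-likelihood F test of edgeR, adjusted by Benjamini-Hochberg over the 223 miRNAs whose mean count exceeded 100, among which were 4 of the 6 members. miR-148b-5p and miR-152-5p fell below this minimum.

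After scaling to the references, the 4 tested members were higher in TAC, by amounts near that of the typical miRNA. miR-148a-3p had 23892, 20266, 17559.8 and 19378 reference-scaled CPM in TAC mice 1 to 4, all above the highest Sham library. Its log2 fold change was 0.76 (standard error 0.15, edgeR adjusted p = 0.00191). miR-148a-5p reached 48.4, 44.4, 46.4 and 42.6 reference-scaled CPM in TAC, also above every Sham library, with a log2 fold change of 0.85 (standard error 0.18, edgeR adjusted p = 0.00312). The 2 arms of the miR-148a hairpin thus had the 2 largest fold changes of the tested members on this scale.

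miR-152-3p had 4995, 4517, 4119 and 3732 reference-scaled CPM in TAC mice 1 to 4, all above the highest Sham library. Its log2 fold change was 0.63 (standard error 0.14, edgeR adjusted p = 0.00418). miR-148b-3p had 823, 737, 624 and 753, and 1 of these 4 values, that of TAC 3, fell short of Sham 1 (736). Its log2 fold change was the smallest, 0.50 (standard error 0.20), and it passed the threshold narrowly (edgeR adjusted p = 0.0495). When any 1 library other than Sham 1 was left out, the edgeR adjusted p of miR-148b-3p was above 0.05, up to 0.217. Without Sham 1 its log2 fold change was 0.83 (edgeR adjusted p = 0.00133).

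At an adjusted p below 0.05, 4 of the 4 tested members were higher in TAC on this scale, as were 142 of all 223 tested miRNAs (63.7%). The members' median log2 fold change was 0.70, beside 0.61 over all tested miRNAs. With the study's further demand of a fold change above 1.7, which is 0.766 on the log2 scale, only miR-148a-5p at 1.80-fold was called. Of all tested miRNAs, 82 (36.8%) were called higher and 2 lower by that rule. miR-148a-3p lay just under the fold threshold at 0.76, with miR-152-3p at 1.55-fold and miR-148b-3p at 1.41-fold further below. The count of members called was 3 without Sham 1 and 0 without Sham 2 or Sham 3, so it depended on which libraries were kept. The count over all miRNAs moved in the same direction, with 106 called higher without Sham 1, 72 without Sham 2 and 59 without Sham 3. Groups did not overlap for 3 of the 4 tested members, and all TAC libraries were above all Sham libraries for 54.7% of the tested miRNAs.

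By library totals the 4 tested members had log2 fold changes of -0.14 for miR-148a-3p, -0.046 for miR-148a-5p, -0.27 for miR-152-3p and -0.40 for miR-148b-3p. None passed edgeR's test (adjusted p from 0.170 to 0.864, and 0 at an unadjusted p under 0.05), where 22.0% of all tested miRNAs passed in either direction. No member had all TAC libraries below all Sham libraries, which 27.4% of the tested miRNAs had. With edgeR's TMM scaling, which assumes that most miRNAs did not change, the values were 0.072, 0.16, -0.057 and -0.19 in the same order. Again 0 of the 4 passed, also unadjusted (adjusted p from 0.577 to 0.814), beside 13.5% of all tested miRNAs in either direction. The median over all tested miRNAs was -0.29 by library totals and -0.082 by TMM. By the rule with the fold threshold, TMM called 3 miRNAs higher and 10 lower, and library totals 1 and 23, where the reference scaling called 82 and 2.

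The members' place among the other miRNAs is by construction nearly the same under reference scaling and library totals, which differ by a constant, and it moved little under TMM. miR-148a-5p ranked 157 of 223 from the lowest fold change under each of these 3 scalings. The share of tested miRNAs with a lower fold change was 61.9–62.3% for miR-148a-3p, 52.9–53.4% for miR-152-3p and 36.3–37.2% for miR-148b-3p. With 1 reference factor per library these shares were 57.4%, 53.4% and 29.6%, and 68.2% for miR-148a-5p. All 4 therefore lay in the broad middle of the distribution, and the members themselves were spread over 0.35 on the log2 scale, miR-148a-5p at the top and miR-148b-3p at the bottom.

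**Figure D2:**
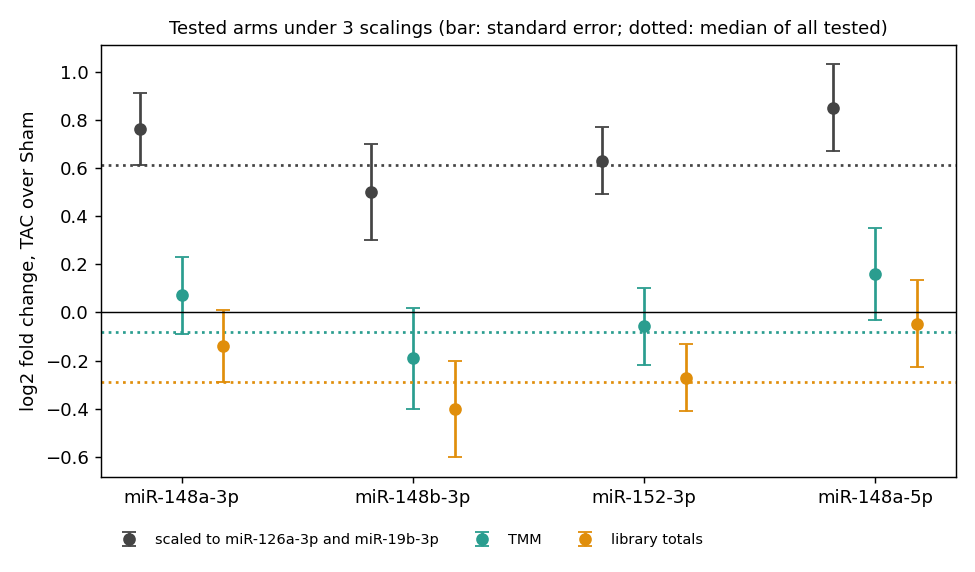
Log2 fold change of TAC over Sham for the 4 tested members under 3 scalings, with bars for the standard error from edgeR and dotted lines for the median of all 223 tested miRNAs under the same scaling. All 4 members lie above 0 when scaled to the 2 reference miRNAs (0.50 to 0.85) and below 0 by library totals (-0.40 to -0.046), and under each scaling they lie on both sides of the median.

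**Figure D3:**
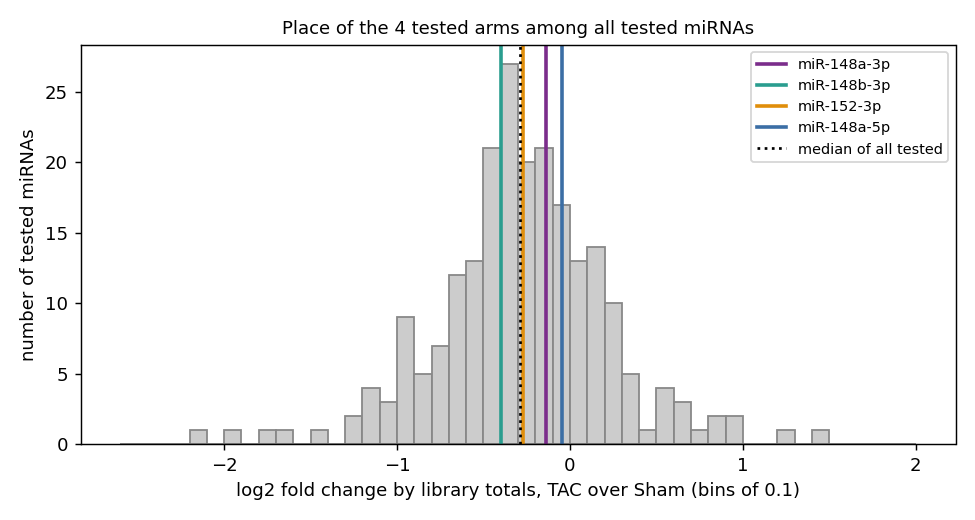
Number of tested miRNAs in bins of 0.1 of the log2 fold change of TAC over Sham by library totals, with a coloured line for each of the 4 tested members and a dotted line for the median, -0.29. The members lie between -0.40 (miR-148b-3p) and -0.046 (miR-148a-5p), within the bulk of the 223 miRNAs.

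An exact permutation test over the 70 arrangements of the 8 libraries, in which every arrangement gets its own reference factor, asks more of the reference-scaled values, since the factor itself follows the groups. By this two-sided test miR-152-3p had a p of 0.0286, the smallest that 4 libraries against 4 can give. The p-values of this test were not adjusted over the 4 tested members. The exact permutation p was 0.0571 for miR-148a-5p, 0.0857 for miR-148a-3p and 0.286 for miR-148b-3p, none of which passed. By library total the exact permutation p was 0.143 for miR-152-3p and for miR-148b-3p, 0.429 for miR-148a-3p and 0.800 for miR-148a-5p.

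miR-148b-5p could be fitted when the minimum was lowered to a mean of 10 counts. Its log2 fold change was then 0.54 after reference scaling (standard error 0.33, edgeR adjusted p = 0.199), -0.059 by TMM and -0.35 by library totals, and it passed under none of the 3. No change of this arm, counted in 15 to 36 tags per library, was detected.

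Since the 3p arms share their seed, their sum is the quantity that a common target would meet. Together they took 1.77%, 1.29%, 1.45% and 1.59% of the miRNA counts in Sham mice 1 to 4. In TAC mice 1 to 4 they took 1.59%, 1.37%, 1.20% and 1.28%. The groups overlapped, at 1.53% ± 0.205 and 1.36% ± 0.171 (SD, n = 4 each, exact permutation p = 0.257), and the counting error, with Wilson 95% half-widths of at most 0.0123 percentage points, was small beside the spread between mice. The difference, -0.167 points, turned to 0.138 when the 10 most abundant miRNAs were left out of the total (exact permutation p = 0.629).

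After reference scaling the sum of the 3p arms was 15281 ± 2047 CPM in Sham and 25349 ± 3190.1 CPM in TAC (SD, n = 4 each). All 4 TAC libraries were above the Sham libraries, by 0.73 on the log2 scale, but the exact permutation test that recomputes the factor gave p = 0.0857. Fitted as 1 feature in edgeR, the summed counts had a log2 fold change of 0.73 (standard error 0.13, edgeR adjusted p = 0.00129), of 0.040 by TMM (edgeR adjusted p = 0.840) and of -0.17 by library totals (edgeR adjusted p = 0.360). Without Sham 1 the difference was 0.92, with an exact permutation p of 0.0286.

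No difference in the make-up of this pool passed the test. miR-148a-3p made up 82.8%, 76.6%, 74.4% and 78.1% of it in Sham mice 1 to 4 and 80.4%, 79.4%, 78.7% and 81.2% in TAC mice 1 to 4. That is 78.0% ± 3.53 in Sham and 79.9% ± 1.09 in TAC (exact permutation p = 0.343, n = 4 each). miR-152-3p made up 18.7% ± 4.06 and 17.2% ± 1.22 (exact permutation p = 0.514, n = 4 each), and miR-148b-3p 3.36% ± 0.543 and 2.90% ± 0.175 (exact permutation p = 0.0857, n = 4 each). Sham 1 had the most miR-148a-3p and miR-148b-3p and, at 13.1%, the least miR-152-3p of the 8 pools.

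Ratios of counts within a library do not depend on how libraries are scaled to each other. In all, 9 log2 ratios were tested, 6 between members and 3 of the summed 3p arms to other lists. None passed after Benjamini-Hochberg adjustment over the 9. The smallest exact permutation p for 4 libraries against 4 is 0.0286, so a ratio that differs alone cannot pass this adjustment. The clearest was that of miR-148a-3p to miR-148b-3p, the arms that differ at bases 9 and 10. There were 19.9, 24.3, 25.5 and 24.3 tags of miR-148a-3p per tag of miR-148b-3p in Sham mice 1 to 4. In TAC mice 1 to 4 there were 29.0, 27.5, 28.1 and 25.7. All TAC libraries were above all Sham libraries, though TAC 4 was close to Sham 3, and the ratio was 1.18-fold higher in TAC (0.23 on the log2 scale, exact permutation p = 0.0286, adjusted p = 0.257). Without Sham 1 the difference was 0.16 (exact permutation p = 0.0571).

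The ratio of miR-148a-3p to miR-152-3p was 6.32 in Sham 1, 3.79, 3.28 and 4.17 in the other Sham libraries, and 4.78, 4.49, 4.26 and 5.19 in TAC mice 1 to 4. The groups overlapped because of Sham 1 (0.13 on the log2 scale, exact permutation p = 0.571, adjusted p = 0.857). Without it the TAC libraries were all higher, by 0.32 (exact permutation p = 0.0286, the smallest possible for 3 against 4). That library therefore decides whether this pair separates the groups.

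The ratio of miR-148b-3p to miR-152-3p was 0.317 in Sham 1, 0.156, 0.129 and 0.171 in the other Sham libraries, and 0.165, 0.163, 0.152 and 0.202 in TAC mice 1 to 4. The groups differed by -0.10 on the log2 scale (exact permutation test, adjusted p = 0.971), and by 0.17 without Sham 1 (exact permutation p = 0.400). No difference in this ratio was detectable with 4 mice per group.

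The balance of the arms bears on how a hairpin is used. miR-148a-3p had 480.3, 406, 517 and 491 tags per tag of miR-148a-5p in Sham mice 1 to 4, and 492, 455, 377 and 454 in TAC mice 1 to 4. The groups overlapped (-0.093 on the log2 scale, exact permutation p = 0.457, adjusted p = 0.823). For miR-148b the 3p arm had 219.9 tags per 5p tag in Sham 1 and 60.3, 60.3 and 71.8 in the other Sham libraries. In TAC mice 1 to 4 it had 72.7, 89.5, 65.4 and 119. The geometric means, 87.0 in Sham and 84.4 in TAC, were close (exact permutation p = 0.971, adjusted p = 0.971), but Sham 1 lay far from its group, and without it the difference was 0.40 on the log2 scale (exact permutation p = 0.143). The 3p arm was thus the dominant one of all 3 hairpins in every library, while the size of its lead for miR-152 rests on too few 5p tags to be given as a value.

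The 3p arms were also set against other groups of miRNAs, by ratios that need no scaling. The sum of the 3p arms was 0.321 of the fibroblast and smooth muscle list in Sham and 0.317 in TAC (geometric means, n = 4 each), a difference of -0.016 on the log2 scale (exact permutation p = 0.943, adjusted p = 0.971). Against the cardiomyocyte list it was 0.0896, 0.0768, 0.0904 and 0.0875 in Sham mice 1 to 4 and 0.0820, 0.0619, 0.0529 and 0.0521 in TAC mice 1 to 4. TAC 1 lay within the Sham range and the other TAC libraries below it, and the difference was -0.49 on the log2 scale (exact permutation p = 0.0571, adjusted p = 0.257). Leaving out TAC 1, the library that overlapped, gave -0.63 (exact permutation p = 0.0286, unadjusted). Leaving out any other library gave -0.54 to -0.41 (exact permutation p from 0.0571 to 0.0857). With the geometric mean of the list the difference was smaller, -0.37. The cardiomyocyte list is dominated by miR-1a-3p, which had a log2 fold change of 0.54 by library totals, where miR-133a-3p had -0.10. The fibroblast and smooth muscle list is dominated by miR-143-3p, which had -0.11, and its other tested miRNAs had -0.43 to 0.020. The difference between the ratios to these 2 lists was not itself tested.

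The miR-130 and miR-301 miRNAs have a seed that overlaps that of the 3p arms, shifted by a base. Of these, 3 were in the files, and only miR-130a-3p passed the count minimum, with a log2 fold change of 0.58 after reference scaling (edgeR adjusted p = 0.00612) and -0.31 by library totals. The 3p arms summed to 172 times this list in Sham and 195 times in TAC (geometric means, n = 4 each, exact permutation p = 0.343, adjusted p = 0.823). The groups overlapped.

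**Figure D4:**
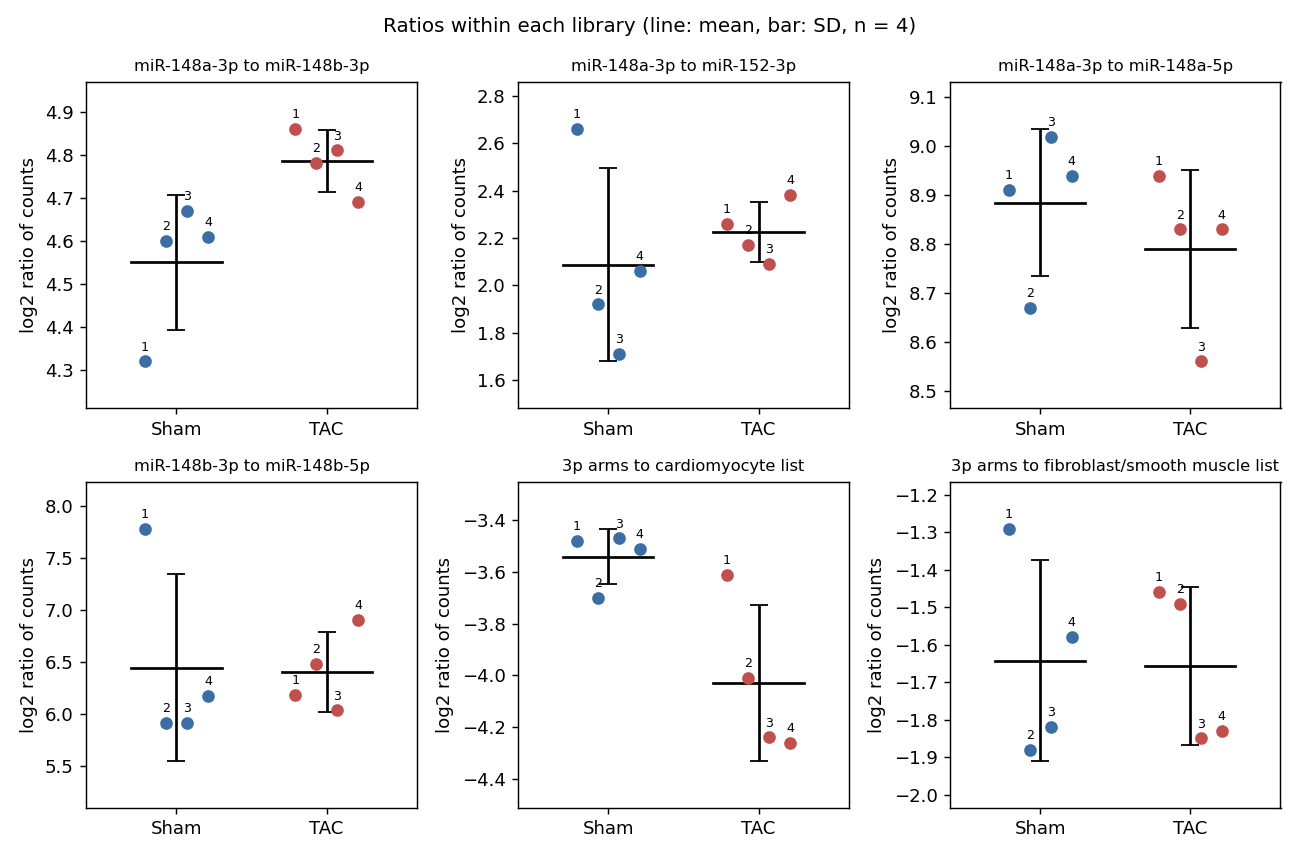
Log2 ratios of counts within each library for 6 of the 9 ratios tested, with points for libraries numbered by mouse and a line and bar for the mean and SD of 4 libraries; the vertical axes differ and do not start at 0. The groups stand apart only for miR-148a-3p to miR-148b-3p (4.55 ± 0.16 in Sham, 4.78 ± 0.073 in TAC), and Sham 1 is far from the other Sham libraries for miR-148a-3p to miR-152-3p (2.66) and for miR-148b-3p to miR-148b-5p (7.78).

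Across the 8 libraries, miR-148a-3p and miR-148b-3p were closer to each other than either was to miR-152-3p. Likeness was taken as the SD of the log2 ratio of 2 miRNAs over the 8 libraries, given here as a description. It was 0.170 between miR-148a-3p and miR-148b-3p, which made miR-148b-3p the 6th closest of the tested miRNAs to miR-148a-3p. miR-152-3p ranked 61 for miR-148a-3p, at 0.287, and 90 for miR-148b-3p, at 0.390. The closest to miR-148a-3p were miR-744-5p (0.119), miR-221-5p (0.131) and let-7i-5p (0.140), against a median of 0.368 over all tested miRNAs. For miR-148b-3p they were miR-140-5p (0.108), miR-874-3p (0.143) and miR-504-5p (0.152), with a median of 0.415. For miR-152-3p they were miR-151-3p (0.0997), miR-139-3p (0.105) and miR-872-5p (0.141), with a median of 0.348. Sham 1 enters all of these values, and it is the library in which miR-152-3p and the miR-148 3p arms lay on opposite sides of their group.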

How the data were processed

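Small RNA of 8 libraries (Sham 1 to 4, TAC 1 to 4, from the sample labels) was analysed. The authors deposited, for each library, whole-number tag counts per mature miRNA without normalization. The submitters' processing notes name StringTie 1.3.1 and mm10; the aligner, the miRNA reference and the handling of ambiguous tags are not given in the sources used here. No library was a copy of another.

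With group as the only term, counts were fitted by glmQLFit and glmQLFTest of edgeR 4.0.16 under R 4.3.3. Library size was the miRNA total, times 0.537 in TAC. This factor is the TAC mean CPM over the Sham mean CPM, averaged geometrically over both reference miRNAs. miRNAs with a mean above 100 counts were tested (223 of 697), with Benjamini-Hochberg adjustment over all of them, and called where the adjusted p was below 0.05 and the fold exceeded 1.7. Standard errors divide the log2 fold change by the root of F. The biological coefficient of variation was 0.255, so counting error (95% Wilson intervals, floors of 3 counts) was minor for the 3p arms. Intervals and floors cover counting error only, as tags carry no molecular identifiers. Within-library ratios had 0.5 added to each count. Exact permutation tests were two-sided over 70 arrangements.

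The named miRNAs were all members, the references, the lists above, and the 3 miRNAs with the smallest SD of the log2 ratio to each 3p arm. The members and lists were chosen with earlier results of these data known. Alternatives were TMM, library totals, a reference factor per library, each reference alone, DESeq2 1.42.0 with its own and the reference scaling, other count minimums and fold thresholds, a replicate block, other denominators and pseudocounts, and each library left out. The fit of the summed 3p counts was added after the data had been examined. Fits were tested on simulated data in which the references did not change and as many miRNAs were set to rise as to fall. That test therefore cannot bear on the choice between scalings. Mature sequences and hairpins were read from RefSeq tables and placed against GENCODE vM21, both on GRCm38. Python 3.11.15 with numpy 2.4.6, pandas 2.3.3 and matplotlib 3.10.9 made the other values.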

Additional observations from a re-analysis of the deposited data

Results flagged for a closer look

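Among 32 groups of 4 libraries looked at with Dixon's ratio, 2 had a library far from the rest, both times Sham 1. Chance alone flags about 1 in 20 such groups. miR-148b-5p had 3.24 CPM in Sham 1 against 6.68 to 6.99 CPM in the other Sham libraries, a ratio of 0.916. The log2 ratio of miR-148b-3p to miR-148b-5p was 7.78 in Sham 1 against 5.91 to 6.17, a ratio of 0.865. Both rest on the same 15 tags of miR-148b-5p.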

How the results depend on the processing

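Of 270 values computed under an alternative, 203 kept their direction and side of the threshold or moved little, and 21 turned in direction. TMM called 3 miRNAs higher and 10 lower, library totals 1 and 23, and DESeq2 with its own size factors 5 and 9. Without a filter on counts 127 were called higher, by adjusted p alone 142, and at a fold above 2, 43. With miR-19b-3p alone as reference 1 was called lower, and 1 to 2 with a library left out. Of the members, 0 were called under TMM, library totals, DESeq2's size factors, miR-126a-3p alone or a fold above 2, 2 with miR-19b-3p alone, 4 by adjusted p alone, and 0 to 3 with a library left out. Over all miRNAs, 63 were called higher with miR-126a-3p alone, 99 with miR-19b-3p alone, and 59 to 106 with a library left out.

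With DESeq2's own size factors, the log2 fold changes were 0.11 for miR-148a-3p, 0.20 for miR-148a-5p, -0.15 for miR-148b-3p and -0.013 for miR-152-3p. TMM gave 0.072, 0.16, -0.19 and -0.057, and library totals -0.14, -0.046, -0.40 and -0.27, in that order. miR-148b-5p had -0.059 by TMM and -0.35 by library totals. These scalings differ by construction in what they hold level. miR-148b-3p missed the threshold with a reference factor per library (0.39), with miR-126a-3p alone (0.40), and at 0.50 without a filter or with a minimum of 10, where more miRNAs are tested. With a library left out it ranged from 0.32 to 0.83. Leaving a library out gave 0.60 to 0.99 for miR-148a-3p, 0.68 to 1.07 for miR-148a-5p and 0.52 to 0.75 for miR-152-3p, all at an edgeR adjusted p of 0.0252 or less.

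The sum of the 3p arms differed by -0.17 by library totals, by 0.73 as 1 edgeR feature, and by 0.57 to 0.92 with a library left out. Its share of counts differed by 0.138 points without the 10 most abundant miRNAs. With a library left out the log2 ratio of miR-148b-3p to miR-152-3p ranged from -0.27 to 0.17, that of miR-148b-3p to miR-148b-5p from -0.22 to 0.40, and that of the 3p arms to the fibroblast and smooth muscle list from -0.095 to 0.10, or 0.079 with the list's geometric mean. Apart from these constructions, the cause was not tested.

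Replicate numbers are shared by the groups. The study speaks of 4 pairs of Sham and TAC mice, without saying what pairs them or whether the numbers follow the pairs. Same-numbered libraries did not deviate together, with correlations of -0.37 to 0.31 and 2 of 4 above 0.1. So few correlations cannot decide whether the mice were paired, and the main tests did not use the numbers as pairs. In these correlations 1 of 4 Sham libraries was closest to its own number. With the replicate block, the log2 fold changes were 0.77 for miR-148a-3p, 0.86 for miR-148a-5p, 0.53 for miR-148b-3p and 0.63 for miR-152-3p. Then 2 members were called instead of 1, as miR-148a-3p crossed the fold threshold, while over all miRNAs 76 were called higher instead of 82. Paired tests of 4 pairs cannot go below an exact p of 0.125. With 4 mice per group the exact tests cannot pass an adjustment over 9 ratios unless several differ at once.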
